A study of Rattus norvegicus with 16 samples.

Results

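The comparison described here is that of neural stem and progenitor cells kept for 6 d without growth factor with the same kind of culture kept for 12 h without growth factor. It rests on 8 of the 16 arrays of the series, chosen by their labels: 4 arrays of cells kept for 6 d and 4 arrays of cells kept for 12 h. The cells came from the neocortex of Sprague-Dawley rat embryos at embryonic day 14.5 and had been expanded as a monolayer on fibronectin with FGF-2 (fibroblast growth factor 2, 10 ng/ml), the mitogen that keeps such cultures dividing. In both groups FGF-2 was withdrawn and nothing was added in its place. The other 8 arrays carried RNA of cells given 10 ng/ml platelet-derived growth factor AA (PDGF-AA) for 6 d or 12 h, again 4 each. Every array also carried, in the other dye, RNA of cells held in FGF-2, so that a value is the log ratio of a sample to FGF-2-treated cells. The cultures hold mixed cells, and no marker was used to sort them.

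Withdrawal of FGF-2 takes neural progenitors out of the cell cycle, and over days the cells become neurons, astrocytes and oligodendrocytes. Early markers of the astrocyte lineage include the gap junction protein connexin 43 and secreted clusterin, while oligodendrocyte precursors depend on PDGF-AA and later make myelin proteins. DNA replication and mitosis are run by gene sets that E2F factors and the DREAM and MuvB complexes switch on in dividing cells and hold down in resting ones.

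The labels state at least 2 RNA preparations behind each group of 4 hybridisations but not which arrays share one, so the p-values reflect how far repeat hybridisations differ, and part of that may be technical. Positive values are taken to mean more RNA in the sample than in FGF-2-treated cells. This direction is likely but not stated, as is the base of the logarithm, taken as 2, and it was read from replication genes, which lie below 0 after the mitogen is withdrawn. Whether the same FGF-2 RNA was used on all arrays is not stated either, so a difference between 6 d and 12 h may hold a difference between reference RNAs. The array values given below have the fitted dye effect removed and stand in the order of replicates 1 to 4, a numbering that only names the arrays. After that removal, arrays of the 6 d group correlated with each other at 0.442 to 0.548 for equal dyes and at 0.319 to 0.582 for opposite dyes, across 12559 genes and probes, and the 12 h arrays at 0.51 to 0.564 and 0.437 to 0.644. Arrays of different times correlated at 0.166 to 0.522. Before the removal, equal-dye arrays correlated at 0.466 to 0.662 at 6 d and at 0.632 to 0.721 at 12 h. Opposite-dye arrays then correlated less, at 0.114 to 0.441 at 6 d and at -0.0272 to 0.177 at 12 h. Before it, arrays of different times ranged from -0.16 to 0.637.

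Of 12559 units tested (6241 named genes and 6318 probes with no gene or several genes listed), 235 differed between 6 d and 12 h at an adjusted p under 0.05 (limma, Benjamini-Hochberg), which is 1.87% of all units. At 6 d 178 were higher (1.42%) and 57 were lower (0.454%) than at 12 h. The 4 arrays of one time lay entirely apart from those of the other for 174 of the 178 and for 57 of the 57, where 6.3% of all units lay apart as higher and 4.78% as lower. The units were called by the same difference on the same arrays, so their separation is no further support. The differences ran from 0.50 to 5.34 log2 units for the higher units, with a median of 0.83, and from -1.79 to -0.47 for the lower ones, with a median of -0.75, while the median of all units was 0.02. Read against FGF-2-treated cells, 88 of the 178 higher units had a mean above 0 at 6 d and below 0 at 12 h, 58 were above 0 at both times, and 32 were below 0 at both. Among the 57 lower units 41 had a mean below 0 at 6 d and above 0 at 12 h, 10 were below 0 at both times and 6 above 0 at both. The calls covered 169 named genes, 127 of them higher and 42 lower at 6 d. Leaving out 1 array at a time gave 92 to 135 units called higher and 17 to 42 called lower. The higher count fell by over 1.5 times without replicate 3 or 4 at 6 d (92 and 111) or without replicate 1, 3 or 4 at 12 h (94, 92 and 94). The lower count did so without each array but replicate 2 at 6 d, with 36, 20 and 30 for replicates 1, 3 and 4 at 6 d and 17, 23, 20 and 31 for replicates 1 to 4 at 12 h.

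**Figure D1:**
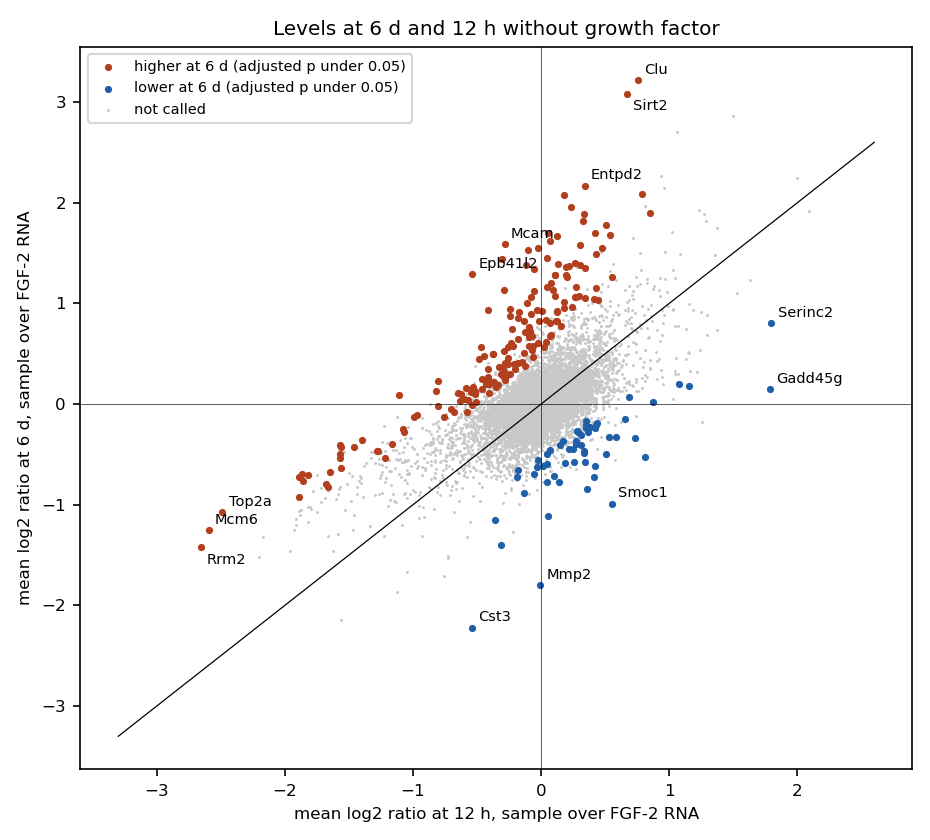
Mean log2 ratio over FGF-2 RNA at 6 d (vertical) and at 12 h (horizontal) for each gene or probe without growth factor, with equality as a diagonal line. The 178 units called higher at 6 d are red, the 57 called lower are blue and the rest grey, and 1 unnamed probe that lies above the plotted range is not drawn. Top2a, Mcm6 and Rrm2 lie below 0 at both times, with a higher mean at 6 d, while Mmp2 lies far below 0 at 6 d and near it at 12 h.

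Several markers of glia were higher at 6 d than at 12 h. In bulk RNA, more cells of a type and more RNA per cell cannot be told apart. Sirt2, a tubulin deacetylase that is abundant in oligodendrocytes, had log2 ratios of 3.34, 2.51, 3.63 and 2.86 on the 6 d arrays, against 0.87, 0.45, 1.02 and 0.34 on the 12 h arrays. The lowest 6 d array lay above the highest 12 h array, and the difference was 2.42 ± 0.24 (SE, n = 4 arrays per time, adjusted p = 5.62e-05), or 5.34-fold on the assumed base. Cd9, a tetraspanin of oligodendrocyte lineage cells, stood at 1.16, 0.79, 0.78 and 0.34 at 6 d, against 0.24, -0.26, 0.01 and -0.35 at 12 h. Its groups were close but did not overlap (0.86 ± 0.19, adjusted p = 0.028). These 2 were the called members among 9 measured genes of the oligodendrocyte lineage (22.2%, against 1.42% of all units called higher). The other 7, among them Pdgfra, the receptor gene for PDGF-AA (0.54), and the kinase gene Fyn (0.42), did not pass. The list's median was 0.42 with 9 of 9 differences above 0, where 53.4% of all units were above 0. Sox8 (0.06), Cd82 (0.02) and Qk (0.00156) were close to 0, and the list holds 41 genes. By array, the list's medians overlapped, with 0.48, 0.69, 0.78 and 0.21 at 6 d against 0.24, 0.45, 0.40 and 0.20 at 12 h.

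Clu, which encodes the secreted chaperone clusterin, had 4.23, 3.83, 2.97 and 1.86 at 6 d, against 0.70, 0.93, 1.39 and 0.01 at 12 h. All 4 arrays of 6 d lay above those of 12 h, but they spread over more than 2 log2 units, and the difference of 2.46 ± 0.51 had an adjusted p of 0.0189. That call was lost without replicate 1 or 2 at 6 d or without replicate 1 or 4 at 12 h (adjusted p from 0.0634 to 0.0719). Cd9 lost its call without replicate 1, 2 or 3 at 6 d or replicate 2, 3 or 4 at 12 h (adjusted p from 0.0625 to 0.101). Gja1, the gene of connexin 43, was steadier, with 2.25, 1.68, 2.15 and 1.48 at 6 d and 0.13, 0.74, 0.32 and 0.15 at 12 h (1.56 ± 0.23, adjusted p = 0.00178). Entpd2 encodes an ecto-ATPase of the cell surface found on astroglia and progenitors. It stood at 2.64, 2.05, 1.98 and 2.00 at 6 d, against 0.42, 0.45, 0.00 and 0.49 at 12 h (1.83 ± 0.17, adjusted p = 3.76e-05). One astrocyte marker moved the other way: Cst3, the gene of the secreted protease inhibitor cystatin C, had -2.58, -2.09, -2.19 and -2.03 at 6 d and -0.52, -0.49, -0.40 and -0.75 at 12 h. With a difference of -1.68 ± 0.30 (adjusted p = 0.00721) it was 3.21-fold higher at 12 h. Of 18 astrocyte genes measured, 3 were thus higher (16.7%, against 1.42% of all units), 1 was lower (5.56%, against 0.454%) and 14 did not pass, with a median of 0.26. The glutamine synthetase gene Glul (0.50), the glutamate transporter gene Slc1a3 (0.36), Aldoc (-0.41) and Sparcl1 (-0.73), which encodes a secreted matricellular protein, were among those that did not.

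The promoter window of Entpd2 is shown as an example of one that holds a match to the AP-1 motif TGANTCA, the letters bound by Jun and Fos dimers. It was picked for that match, and a link between Jun and Entpd2 was not tested. The sequence runs from 250 bases before to 50 bases after the gene start in rat RefSeq (GRCr8, chr3:28611566-28611865, plus strand), with the match in capitals.
Entpd2: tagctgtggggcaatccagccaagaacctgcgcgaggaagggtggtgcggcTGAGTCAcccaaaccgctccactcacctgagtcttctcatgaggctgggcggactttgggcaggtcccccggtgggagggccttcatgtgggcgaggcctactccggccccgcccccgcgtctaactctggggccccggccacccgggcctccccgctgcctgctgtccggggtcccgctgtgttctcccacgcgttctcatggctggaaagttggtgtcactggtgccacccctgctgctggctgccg
Such a match, on either strand, was present in 5 of the 90 windows of genes called higher outside the cell cycle lists (5.56%), in 1 of 28 windows of genes called lower (3.57%) and in 208 of 4736 windows of all genes tested (4.39%). The share among higher genes was thus close to that of all genes, and a match in the letters does not show that Jun binds there.

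**Figure D2:**
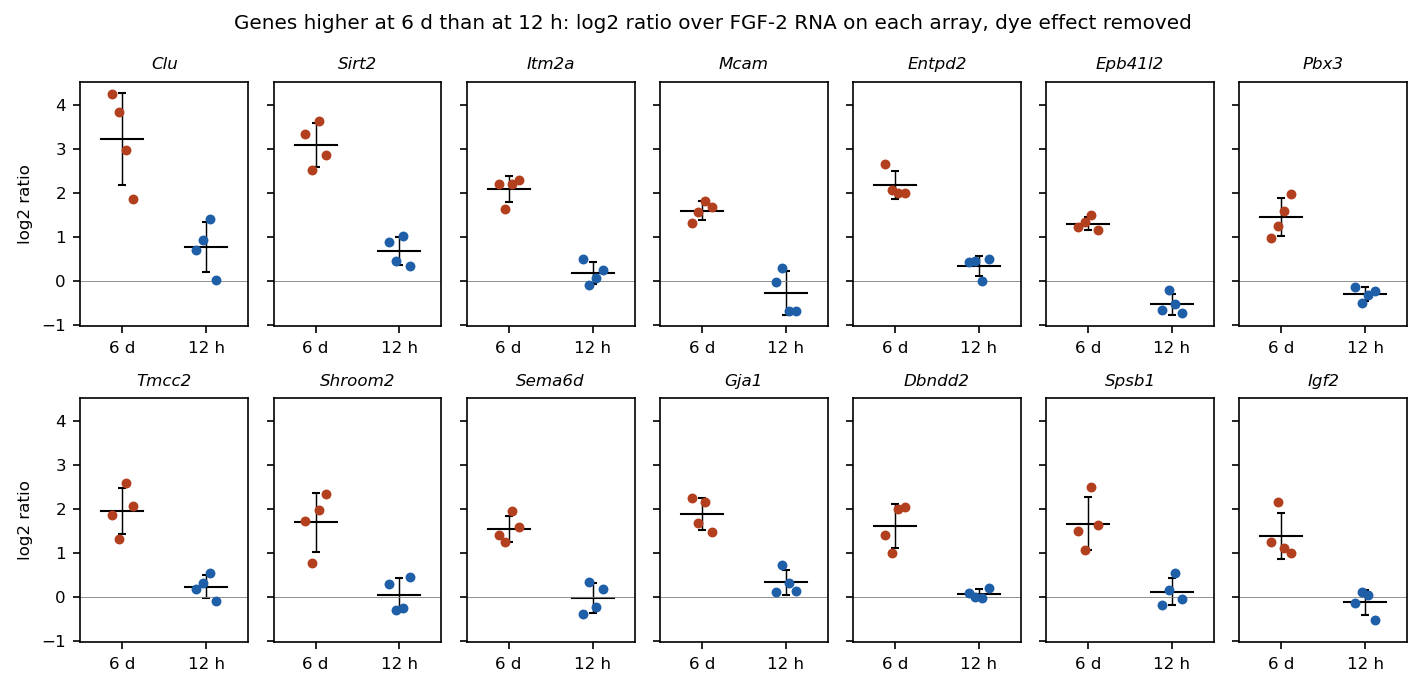
Log2 ratio over FGF-2 RNA on each of the 4 arrays at 6 d (red, left) and the 4 arrays at 12 h (blue, right), with the fitted dye effect removed, for the 14 largest positive differences among called genes whose 6 d and 12 h arrays do not overlap. The line is the mean and the bar the SD. The separation of the times was a condition for being drawn, and the spread of the 6 d arrays is widest for Clu.

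Epb41l2, Mcam, Sema6d and Shroom2 were also among the 14 largest increases of called genes with arrays apart. Epb41l2, a membrane skeleton protein that ties spectrin and actin to the membrane, had 1.21, 1.32, 1.48 and 1.15 at 6 d, against -0.67, -0.21, -0.54 and -0.74 at 12 h. Its arrays lay above the FGF-2 level at 6 d and below it at 12 h (1.83 ± 0.17, adjusted p = 4.03e-05). Mcam, which encodes the adhesion molecule CD146, stood at 1.30, 1.56, 1.81 and 1.68 at 6 d and -0.04, 0.30, -0.69 and -0.70 at 12 h (1.87 ± 0.24, adjusted p = 0.000548). Sema6d, a transmembrane semaphorin that guides axons, had 1.42, 1.25, 1.95 and 1.59 at 6 d and -0.40, 0.34, -0.22 and 0.18 at 12 h (1.58 ± 0.19). Shroom2, an actin-binding protein, had 1.73, 0.77, 1.97 and 2.34 at 6 d, against 0.30, -0.30, -0.25 and 0.46 at 12 h (1.65 ± 0.27, adjusted p = 0.00353). Its second 6 d array was the lowest of that time. That it lay above all 12 h arrays was a condition for naming the gene.

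Among regulators, the homeodomain factor gene Pbx3 had 0.98, 1.25, 1.59 and 1.96 at 6 d, against -0.14, -0.50, -0.34 and -0.24 at 12 h (1.75 ± 0.19, adjusted p = 0.000148). Jun, the AP-1 subunit, was nearly equal over the 6 d arrays at 1.28, 1.38, 1.28 and 1.12, and had 0.27, 0.34, 0.33 and -0.13 at 12 h (1.06 ± 0.18, adjusted p = 0.00517). It was the 1 called member among 14 immediate early genes (7.14%, against 1.42% of all units called higher), whose median was 0.04. The partner gene Fos (0.56) and the zinc finger gene Egr1 (0.53) did not pass, nor did Btg2 (-0.83). Spsb1, an adaptor of a ubiquitin ligase, rose by 1.55 ± 0.30 (adjusted p = 0.0114), and Tmcc2, a transmembrane coiled-coil protein, by 1.72 ± 0.39 (adjusted p = 0.0303). The call of Spsb1 was lost without replicate 1 at 12 h (adjusted p = 0.0519). That of Tmcc2 was lost in 7 of 8 single losses, all but replicate 2 at 6 d (adjusted p from 0.0595 to 0.121), with differences between 1.49 and 1.96. Itm2a, a membrane protein of the BRICHOS family, rose by 1.90 ± 0.24 (adjusted p = 0.000491), and Dbndd2 by 1.55 ± 0.21 (adjusted p = 0.000663).

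The growth factor genes Pdgfa and Igf2 were higher at 6 d, without any factor being added. Pdgfa, the gene of the PDGF-A chain, had 1.64, 2.19, 1.99 and 1.45 at 6 d, against 0.49, 0.25, 0.60 and -0.04 at 12 h. Every 6 d array was above every 12 h array (1.49 ± 0.21, adjusted p = 0.000992). Igf2, which encodes insulin-like growth factor 2, had 1.26, 2.16, 1.12 and 1.00 at 6 d and -0.13, 0.12, 0.04 and -0.51 at 12 h (1.5 ± 0.29, adjusted p = 0.0106). Igf2r, the receptor that takes up and degrades that factor, fell by 0.62 ± 0.14 (adjusted p = 0.0251), with -0.36, -0.03, -0.16 and -0.21 at 6 d against 0.56, 0.44, 0.47 and 0.27 at 12 h. Its call was lost without replicate 1, 3 or 4 at 6 d or replicate 1, 2 or 3 at 12 h (adjusted p from 0.0693 to 0.102). In the list of PDGF, IGF and BMP signalling, 2 of 23 measured members were higher and 1 lower, with a median of 0.11. These are 8.7% and 4.35%, against 1.42% and 0.454% of all units. Igfbp5, which encodes an IGF-binding protein, had a difference of 1.64 that did not pass, and the PDGF receptor gene Pdgfrb had 0.70.

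The largest decrease among called genes was that of Mmp2. It encodes a gelatinase that cleaves basement membrane collagen and lay well under the FGF-2 level at 6 d and close to it at 12 h, with -2.02, -1.68, -2.10 and -1.4 at 6 d against -0.02, -0.03, 0.04 and -0.01 at 12 h. The difference of -1.79 ± 0.25 (adjusted p = 0.000933) is a level 3.47-fold higher at 12 h. Smoc1, a secreted matricellular protein, stood at -0.73, -0.57, -1.07 and -1.59 at 6 d and at 0.58, 0.67, 0.57 and 0.38 at 12 h (-1.54 ± 0.22, adjusted p = 0.00119). It was below the FGF-2 level on each 6 d array and above it on each 12 h array. Lgals1, the gene of galectin 1, fell by 0.91 ± 0.20 (adjusted p = 0.0234), a call lost without replicate 3 or 4 at 6 d or replicate 1, 2 or 3 at 12 h (adjusted p from 0.0606 to 0.102). Of 30 measured genes of extracellular matrix and mesenchymal cells, 3 were higher (10%, against 1.42% of all units), 1 (Mmp2) was lower (3.33%, against 0.454%) and 26 did not pass, with a median of 0.20. An unadjusted p under 0.05 was found for 16 of the 30 (53.3%), against 11.4% of all units. The 3 were the fibrillar collagen gene Col3a1 (0.89 ± 0.19, adjusted p = 0.0214), the basement membrane gene Nid2 (0.83 ± 0.18, adjusted p = 0.0247) and the integrin gene Itgb1 (0.60 ± 0.14, adjusted p = 0.0402). Each of them lost its call in 5 to 7 of 8 single losses: Col3a1 without replicate 3 or 4 at 6 d or 2, 3 or 4 at 12 h (up to 0.0834), Nid2 without 2, 3 or 4 at 6 d or 1, 3 or 4 at 12 h (up to 0.0828), and Itgb1 without any array but replicate 4 at 6 d (up to 0.13). Sparc, another matrix gene, had a difference of 1.34 that did not pass.

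Gadd45g, a growth arrest gene, was near the FGF-2 level at 6 d and well above it at 12 h. Its log2 ratios were 0.89, 0.22, 0.07 and -0.58 at 6 d, against 1.77, 1.97, 1.75 and 1.67 at 12 h. The 6 d arrays were spread around the FGF-2 level, the 12 h arrays lay close together, and the difference was -1.64 ± 0.35 (adjusted p = 0.0227). Cdo1, which encodes cysteine dioxygenase, had 0.23, -0.72, -0.36 and -1.23 at 6 d and 0.52, 1.42, 0.80 and 0.51 at 12 h (-1.34 ± 0.32, adjusted p = 0.0408). Both calls were lost in 7 of 8 single losses, all but that of replicate 1 at 6 d (adjusted p from 0.0521 to 0.0865 for Gadd45g and from 0.0655 to 0.152 for Cdo1). Serinc2, a serine incorporator, remained above the FGF-2 level at both times, with 1.21, 0.72, 0.78 and 0.50 at 6 d against 1.94, 2.01, 1.97 and 1.27 at 12 h (-1.0 ± 0.23, adjusted p = 0.0379). Fat4, an atypical cadherin, had 0.56, 0.14, 0.28 and -0.27 at 6 d and 0.81, 0.88, 1.47 and 1.47 at 12 h (-0.98 ± 0.23, adjusted p = 0.0408). Without a single array the call of Fat4 was lost in 7 of 8 cases, all but replicate 1 at 6 d (up to 0.155), and that of Serinc2 in 6, all but replicate 1 at 6 d and replicate 4 at 12 h (up to 0.135).

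Coro2b, Coro1c and Septin9, genes of the cytoskeleton, were lower at 6 d. The actin-binding coronin gene Coro2b had -0.72, -0.60, -0.57 and -0.57 at 6 d, against 0.56, 0.61, 0.34 and 0.18 at 12 h (-1.03 ± 0.15, adjusted p = 0.00166). The 6 d arrays were nearly equal and all below 0. Coro1c, its relative, fell by 0.92 ± 0.20 (adjusted p = 0.0271), and Septin9, a cytoskeletal GTPase, by 1.09 ± 0.19 (adjusted p = 0.00517). Septin9 was below the FGF-2 level at both times, with -1.95, -1.5, -1.30 and -0.84 at 6 d and -0.28, -0.21, -0.45 and -0.30 at 12 h. Vgll4, a cofactor that binds TEAD factors in place of YAP, changed by -1.0 ± 0.20 (adjusted p = 0.0148), the glutaredoxin gene Glrx by -1.14 ± 0.23 (adjusted p = 0.0159) and Snapc2, a subunit of the complex that starts small nuclear RNA transcription, by -1.21 ± 0.22 (adjusted p = 0.00857). The calls of Vgll4 and Glrx were lost without replicate 3 at 6 d or replicate 1 or 3 at 12 h (up to 0.0606 and 0.0758), and that of Coro1c without replicate 2 or 3 at 6 d or 1 or 4 at 12 h (up to 0.105).

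**Figure D3:**
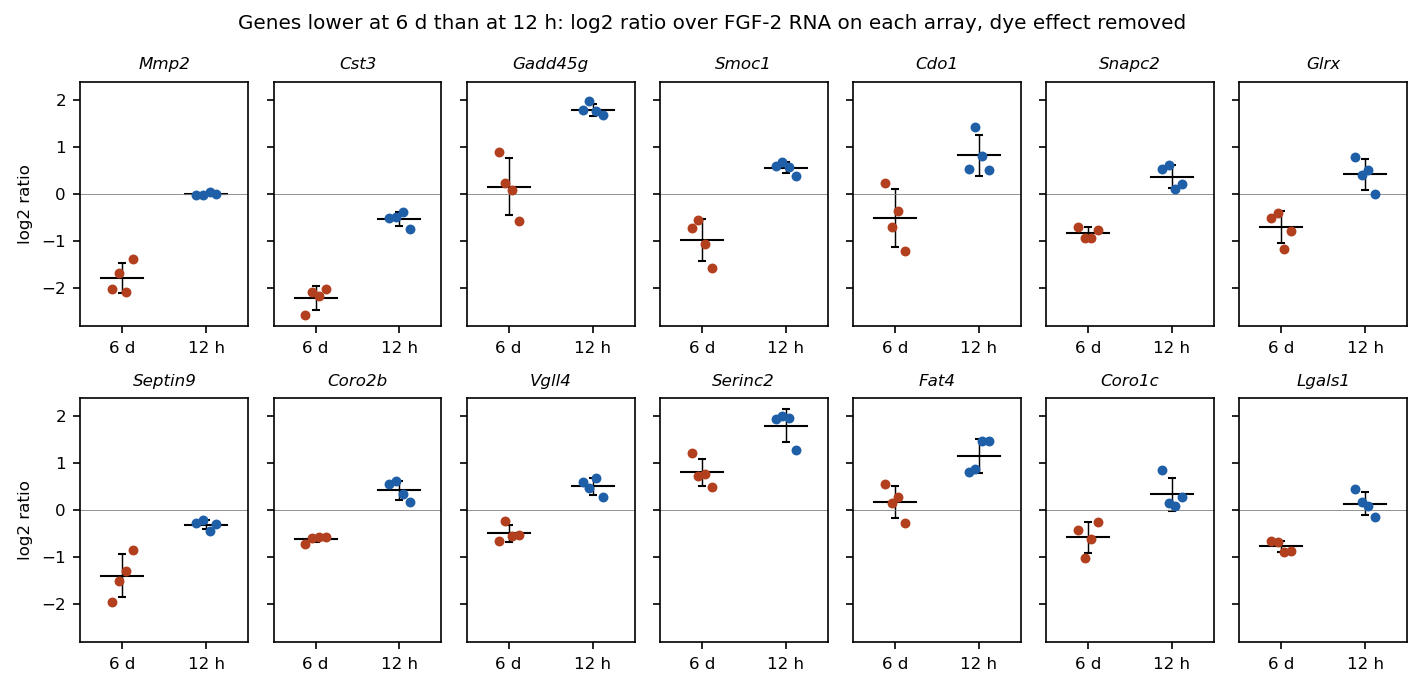
Log2 ratio over FGF-2 RNA on each of the 4 arrays at 6 d (red, left) and the 4 arrays at 12 h (blue, right), with the fitted dye effect removed, for the 14 largest negative differences among called genes whose 6 d and 12 h arrays do not overlap. The line is the mean and the bar the SD. The separation of the times was a condition for being drawn, and Mmp2 is near 0 on all 12 h arrays.

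The median gene of DNA replication and of mitosis lay below the FGF-2 level at both times, and less far below it at 6 d. That replication genes lie below 0 is what set the direction of the ratios, so it is no result here, and the direction of the time difference rests on it too. Of 51 measured genes of replication and nucleotide supply, 7 were higher at 6 d (13.7%, against 1.42% of all units), 0 were lower and 44 did not pass. Their median level was -0.44 at 6 d and -0.94 at 12 h, and 44 of 51 differences were above 0 and 7 below it, where 53.4% of all units were above 0. By array, the median of the list was -0.70, -0.42, -0.58 and -0.35 at 6 d, against -0.82, -0.92, -1.06 and -0.78 at 12 h, so that the times did not overlap. An unadjusted p under 0.05 was found for 25 of the 51 (49%) and for 11.4% of all units. Of 59 genes of mitosis and cytokinesis 6 were higher (10.2%), 0 were lower and 53 did not pass, 55 differences were above 0 and 4 below it, with a median of -0.67 at 6 d and -1.17 at 12 h. The array medians of this list were -0.76, -0.62, -0.77 and -0.46 at 6 d and -1.14, -1.0, -1.43 and -1.03 at 12 h, again apart, and 33 of the 59 genes (55.9%) had an unadjusted p under 0.05. Such separation was not particular to the cell cycle. Array medians also lay apart, higher at 6 d, for the lists of extracellular matrix and of endoplasmic reticulum stress. Those of cytosolic ribosomal proteins and translation factors lay apart as well, lower at 6 d.

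Top2a, the topoisomerase that untangles chromosomes in mitosis, had -1.45, -0.75, -1.05 and -1.03 at 6 d, against -2.82, -2.20, -2.59 and -2.35 at 12 h (1.42 ± 0.26, adjusted p = 0.00764). Mcm6, a subunit of the replicative helicase, had -1.62, -1.01, -1.47 and -0.90 at 6 d and -2.67, -2.64, -2.90 and -2.17 at 12 h (1.34 ± 0.32, adjusted p = 0.0402). Lig1, the ligase that joins Okazaki fragments, had -0.99, -0.64, -0.84 and -0.61 at 6 d and -1.96, -1.85, -1.83 and -1.78 at 12 h (1.09 ± 0.20, adjusted p = 0.00831). In these 3 genes each 6 d array lay between the 12 h arrays and the FGF-2 level. Rrm2, a subunit of ribonucleotide reductase (1.23 ± 0.31), the centriole kinase gene Plk4 (1.03 ± 0.26) and the mitotic kinase gene Cdk1 (0.97 ± 0.24) passed at the edge of the threshold, each at an adjusted p of 0.04999. Pole, the leading strand polymerase, rose by 1.17 ± 0.27, Incenp, of the chromosomal passenger complex, by 1.03 ± 0.22, the chromatin assembly gene Chaf1a by 0.97 ± 0.21 and Ccne1, the gene of cyclin E1, by 0.89 ± 0.22. The flap endonuclease gene Fen1, the cyclin gene Ccnf and the condensin gene Smc2 completed the called members, with 0.86, 0.83 and 0.68. Mki67, which encodes the proliferation marker Ki-67, had -0.13, 0.15, -0.45 and -0.45 at 6 d and -1.25, -0.70, -1.82 and -1.12 at 12 h. Its groups did not overlap, but the difference of 1.00 ± 0.25 did not pass (adjusted p = 0.0548). It passed without replicate 2 at 12 h (1.19, adjusted p = 0.0372).

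How many cell cycle genes passed depended on single arrays. Without replicate 1 at 6 d the 7 replication calls were still 7 in number, and without any other single array 1 or 2 genes were called. For mitosis the count was between 1 and 5. Top2a and Lig1 kept their calls in all 8 single losses, while Mcm6, Pole, Rrm2 and Cdk1 kept theirs in the loss of replicate 1 at 6 d and in no other, with adjusted p-values up to 0.136 for Mcm6, 0.119 for Pole, 0.173 for Rrm2 and 0.181 for Cdk1. Incenp lost its call without replicate 2, 3 or 4 at 6 d or 1 or 3 at 12 h (up to 0.0885), and Plk4 in all 8 single losses (up to 0.184). The differences themselves stayed positive in each loss, between 1.21 and 1.5 for Mcm6 and between 1.09 and 1.4 for Rrm2.

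The promoter windows of a replication gene and a mitosis gene are shown for the motifs known to time their transcription, in rat RefSeq GRCr8 and from 250 bases before to 50 bases after the start. In Mcm6 (chr13:42404303-42404602, minus strand) the capitals mark a match to the E2F motif TTTGGCGC, and in Top2a (chr10:84473044-84473343, minus strand) they mark matches to the CCAAT box and to the CHR motif TTTGAA. A match on the opposite strand appears as its reverse complement, ATTGG for the CCAAT box and TTCAAA for the CHR motif.
Mcm6: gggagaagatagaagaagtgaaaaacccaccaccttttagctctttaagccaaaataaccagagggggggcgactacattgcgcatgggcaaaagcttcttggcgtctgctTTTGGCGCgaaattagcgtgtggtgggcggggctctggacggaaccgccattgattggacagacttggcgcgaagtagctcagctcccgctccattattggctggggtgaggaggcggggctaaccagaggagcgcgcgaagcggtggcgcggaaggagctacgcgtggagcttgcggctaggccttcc
Top2a: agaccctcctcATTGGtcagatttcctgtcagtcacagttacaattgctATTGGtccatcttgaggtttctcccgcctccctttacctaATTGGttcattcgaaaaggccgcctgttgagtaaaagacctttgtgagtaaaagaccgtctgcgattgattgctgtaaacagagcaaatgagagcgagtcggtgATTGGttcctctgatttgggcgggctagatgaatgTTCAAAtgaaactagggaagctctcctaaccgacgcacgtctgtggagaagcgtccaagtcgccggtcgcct
Windows were found for 11 of the 13 called replication and mitosis genes. An E2F motif (TTTCCCGC or TTTGGCGC, on either strand) was present in 2 of the 11 (18.2%), Mcm6 and Pole, and in 167 of 4736 windows of all genes tested (3.53%). TTTGAA was present in 5 of the 11 (45.5%), against 562 of the 4736 (11.9%), and CCAAT in 7 (63.6%), against 1800 (38%). Over all 33469 windows in the table the shares were 1.45% for E2F, 18.3% for TTTGAA and 37.5% for CCAAT. A match is a run of letters and does not show binding.

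Among 20 growth arrest genes and inhibitors of cyclin-dependent kinases, 1 was higher (5%, against 1.42% of all units), 1 (Gadd45g) was lower (5%, against 0.454%) and 18 did not pass, with a median of 0.12. Cdkn2c, the gene of the kinase inhibitor p18, was below the FGF-2 level at both times, with -0.77, -0.37, -0.84 and -0.57 at 6 d against -1.75, -1.18, -1.88 and -1.42 at 12 h (0.92 ± 0.22, adjusted p = 0.0408). Its call was lost in 7 of 8 single losses, all but that of replicate 2 at 12 h (up to 0.154). Cdkn1c, the gene of the inhibitor p57, was above the FGF-2 level at both times, with 3.63, 2.97, 3.33 and 1.53 at 6 d and 1.18, 2.04, 2.01 and 0.78 at 12 h. The times overlapped and the difference of 1.37 ± 0.58 did not pass (adjusted p = 0.342). Outside the list, the kinase gene Cdk4 was lower at 6 d (-0.61 ± 0.14, adjusted p = 0.0304) and the cyclin gene Ccnd2 higher (0.64 ± 0.12, adjusted p = 0.01), both named after their values were seen.

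No gene of the progenitor list passed: 0 of 17 were called in either direction by limma, and the median was -0.08. An unadjusted p under 0.05 was found for 5 of them (29.4%, against 11.4% of all units). Nes, the gene of the intermediate filament nestin, had -0.79, -1.15, -0.76 and -0.85 at 6 d, against -0.16, -0.19, -0.45 and -0.32 at 12 h. The times lay apart, and the difference of -0.61 ± 0.17 had an adjusted p of 0.0995. Ednrb, the endothelin receptor gene, had -0.63 ± 0.46 with overlapping arrays. In the neuron list 1 of 10 was higher (10%, against 1.42% of all units), Gap43, a growth cone protein, with 0.19, 0.03, 0.36 and -0.18 at 6 d and -0.76, -0.10, -0.52 and -0.68 at 12 h (0.61 ± 0.15, adjusted p = 0.0469). Its arrays overlapped, and the call was lost without replicate 1, 2 or 3 at 6 d or 1, 3 or 4 at 12 h (up to 0.179). Tubb3 (0.38), Mapt (0.42) and Uchl1 (-0.43), which mark neurons, did not pass. In the neuron list, 4 of 10 had an unadjusted limma p under 0.05 (40%, against 11.4% of all units). Of 11 genes that growth factors induce through ERK, limma called 0, with a median of 0.03, and 3 had an unadjusted p under 0.05 (27.3%, against 11.4% of all units). Etv5, an ETS factor of that pathway, had -2.09, -1.55, -1.52 and -1.52 at 6 d and -1.08, -0.73, -1.21 and -1.16 at 12 h (-0.63 ± 0.21, adjusted p = 0.183), and Spred2, an inhibitor of ERK activation, had -0.62 ± 0.15 (adjusted p = 0.0504). Spred2 passed without replicate 4 at 6 d.

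Among 36 genes of the lysosome, 3 were higher (8.33%, against 1.42% of all units) and 2 were lower (5.56%, against 0.454%), with a median of 0.12. Ctsl, the gene of cathepsin L, had 1.04, 0.94, 1.12 and 1.16 at 6 d against 0.49, 0.19, 0.17 and 0.22 at 12 h (0.80 ± 0.13, adjusted p = 0.00299), well apart. The acid sphingomyelinase gene Smpd1 rose by 0.72 ± 0.17 and the arylsulfatase gene Arsb by 0.65 ± 0.15, while Cst3 and Igf2r, given above, fell. The call of Smpd1 was lost in all 8 single losses (adjusted p from 0.0826 to 0.141), and that of Arsb in all but those of replicate 1 at 6 d and replicate 2 at 12 h (up to 0.112). In the list of endoplasmic reticulum stress and ATF4, 2 of 26 were higher (7.69%, against 1.42% of all units), with a median of 0.19: Canx, the chaperone calnexin (0.66 ± 0.12, adjusted p = 0.00721), and Pdia6, a protein disulfide isomerase (0.50 ± 0.12, adjusted p = 0.0437). Pdia6 lost its call in all 8 single losses (up to 0.155) and Canx in none. Of 24 glycolysis and hypoxia genes 2 were higher (8.33%, against 1.42% of all units), with a median of 0.10: Slc2a1, the glucose transporter GLUT1 (0.61 ± 0.13, adjusted p = 0.0208), and Pfkl, a phosphofructokinase (0.58 ± 0.14, adjusted p = 0.042). Slc2a1 lost its call without replicate 2 or 3 at 6 d or 1, 3 or 4 at 12 h (up to 0.0903), and Pfkl in all 8 single losses (up to 0.148).

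Few genes of protein synthesis, splicing and energy supply passed the test. Of 23 cytosolic ribosomal protein genes 1 was lower (4.35%, against 0.454% of all units), Rps9 (-0.52 ± 0.12, adjusted p = 0.0408, lost in all 8 single losses, up to 0.162), and 18 of 23 differences were below 0, with a median of -0.15. Among 35 splicing genes Hnrnpa2b1 was higher (0.51 ± 0.12) and Snrpb2 lower (-0.55 ± 0.12), and the median was 0.03. That is 2.86% in each direction, against 1.42% of all units higher and 0.454% lower. Both splicing calls were lost in 7 of 8 single losses, Hnrnpa2b1 in all but that of replicate 4 at 6 d (up to 0.12) and Snrpb2 in all but that of replicate 2 at 6 d (up to 0.094). Limma called 0 members of the lists for translation factors (32 measured, median -0.09), ribosome biogenesis (36, 0.01), oxidative phosphorylation (48, -0.05), vacuolar ATPase (9, -0.09), glutathione transferases and antioxidant enzymes (24, 0.14), sterol and fatty acid synthesis (21, 0.06) and p53 targets (14, -0.06). In that order, 7, 5, 3, 1, 5, 7 and 0 of their members had an unadjusted p under 0.05. As shares these are 21.9%, 13.9%, 6.25%, 11.1%, 20.8%, 33.3% and 0%, against 11.4% of all units. Limma also called 0, at 0 with an unadjusted p under 0.05, of the markers of cells that a cortical dissection can carry along: microglia and macrophages (7, -0.06), endothelium (4, 0.10) and erythroid cells (4, 0.10). Differences of these 15 other-cell genes lay between -0.22 and 0.15, and as ratios to FGF-2 RNA they do not show how much of such RNA was present. Lists with calls also had shares with an unadjusted limma p under 0.05. These were 38.9% for astrocyte, 33.3% for oligodendrocyte lineage, 40% for growth arrest, 33.3% for lysosome and 42.3% for endoplasmic reticulum stress. For glycolysis the share was 29.2%, for PDGF, IGF and BMP signalling 26.1%, for immediate early genes 21.4%, for ribosomal proteins 21.7% and for splicing 14.3%.

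**Figure D4:**
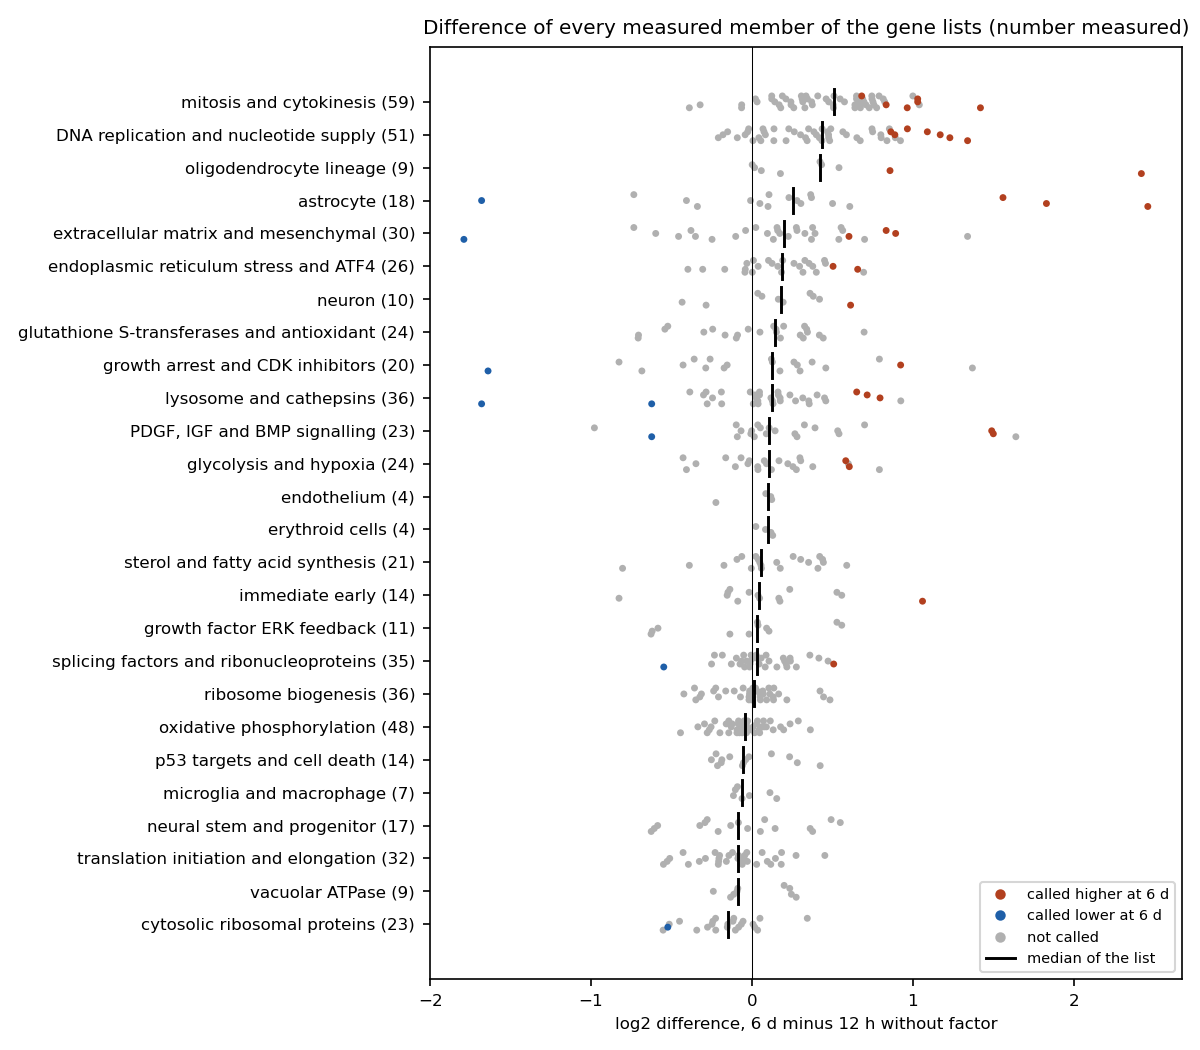
Log2 difference between 6 d and 12 h without growth factor for each measured member of the 26 gene lists, with the number measured in brackets. Red points were called higher at 6 d, blue points lower and grey points neither, and the black bar is the list's median. The lists of mitosis and DNA replication have medians of 0.51 and 0.43, and most of their points lie right of 0.

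With PDGF-AA in the medium, 135 units differed between 6 d and 12 h (1.07% of all units), 80 higher (0.637%) and 55 lower (0.438%). Both comparisons were read against FGF-2 RNA, and the dye term and the spread came from a single fit. The arrays with PDGF-AA were less alike. The mean correlation of an array with its own group was 0.0891 to 0.346 with PDGF-AA and 0.434 to 0.588 without factor. Most PDGF-AA arrays at 6 d also had a title number found in no other group, so time and title number were partly mixed there. A lack of calls in the next test therefore does not show that the time changes were alike. The difference between the time changes without factor and with PDGF-AA was tested directly. Limma called 0 of 12559 units for it (497 had an unadjusted p under 0.05, and the lowest adjusted p was 0.181). That lowest value belonged to Entpd2, with a time difference of 1.83 ± 0.17 without factor and 0.39 ± 0.17 with PDGF-AA. The difference between them was 1.44 (95% interval 0.94 to 1.94). For Clu the values were 2.46 ± 0.51 without factor and 1.08 ± 0.51 with PDGF-AA (interval of the difference -0.14 to 2.92), for Igf2 1.5 ± 0.29 and 0.53 ± 0.29 (0.12 to 1.82), and for Mcm6 1.34 ± 0.32 and 0.14 ± 0.32 (0.25 to 2.15). These 3 had an adjusted interaction p of 0.995. Mcm6 had the smallest difference with PDGF-AA of the 13 called replication and mitosis genes, where Top2a had 0.88 ± 0.26 and Cdk1 0.74 ± 0.24. The median difference of the mitosis list was 0.51 without factor and 0.495 with PDGF-AA, and that of the replication list 0.435 and 0.259. Sirt2 had 2.42 ± 0.24 and 2.13 ± 0.24 (-0.43 to 1.00), Sema6d 1.58 ± 0.19 and 1.59 ± 0.19 (-0.58 to 0.56), Mmp2 -1.79 ± 0.25 and -1.59 ± 0.25 (-0.94 to 0.54) and Coro2b -1.03 ± 0.15 and -1.01 ± 0.15 (-0.48 to 0.44). Over all 178 units called higher the median was 0.83 without factor and 0.58 with PDGF-AA, and over all 57 called lower -0.75 and -0.53. For the called genes picked by the naming rule given below, the medians were 1.13 and 0.67 for 38 higher genes. For the 17 lower ones they were -1.04 and -1.02. All these units were chosen by their difference without factor, so the medians only describe them.

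**Figure D5:**
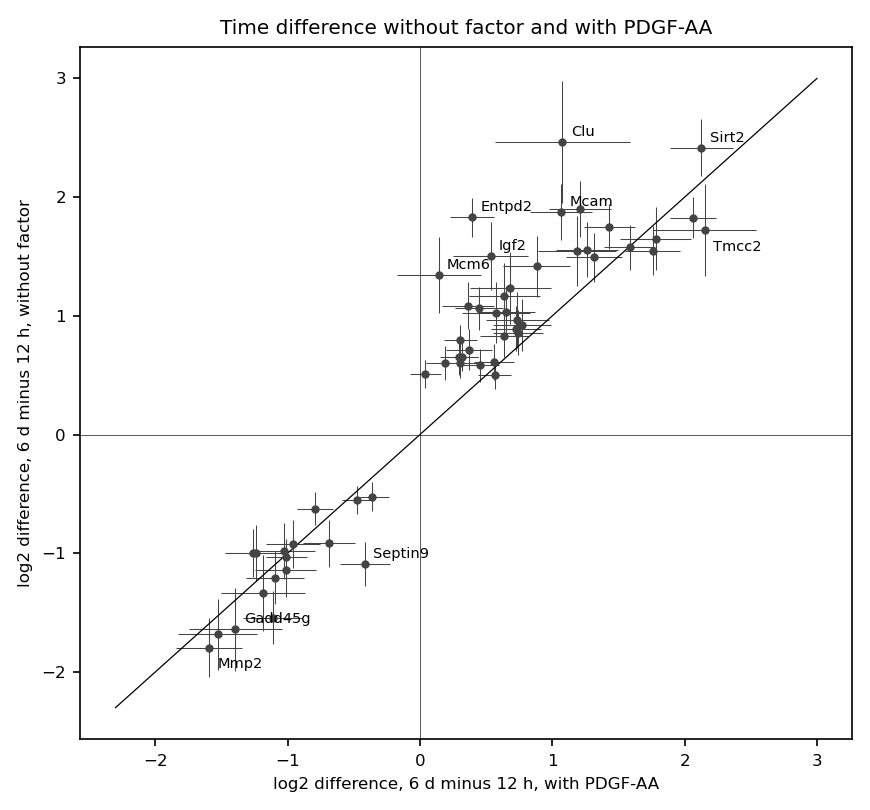
Log2 difference between 6 d and 12 h without growth factor (vertical) and with PDGF-AA (horizontal) for the 55 genes picked by the naming rule and called without factor, with bars of 1 SE on each side and equality as a diagonal line. Entpd2 lies at 1.83 without factor and 0.39 with PDGF-AA, while Sirt2 lies near the diagonal.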

How the data were processed

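Per the labels, 40 µg of total RNA was reverse transcribed with Cy3 or Cy5 nucleotides and hybridised to mouse cDNA chips, which were read with a ScanArray scanner and QuantArray. Rat RNA was thus measured on mouse cDNA, where mismatches can lower a signal. The values the authors deposited are log ratios, taken here as log2, with swapped arrays already turned. For background correction, normalisation and filters, the method was not given in the sources used here. Intensities were not used, so precision is limited by the number of arrays.

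Of 15151 features 8833 had 1 mouse symbol, 606 several and 5712 none. Features of 1 symbol were averaged and the others tested unnamed. Units needed values on 3 arrays of each of the 4 groups, and 0 columns were left unused. Arrays were centred on their median and all 16 were fitted with limma 3.58.1 in R 4.3.3 (group means and a dye term, empirical Bayes, two-sided tests, Benjamini-Hochberg over 12559 units, threshold 0.05). The dye term was called for 39.1% of units and for 105 of the 235 called. Levels against FGF-2 RNA leave out the spread of that RNA. The fit was tested on simulated data with known differences.

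Named genes were the 14 largest differences in each direction among called single-symbol genes with arrays apart and features of one sign, every list's called members (up to 4), the top 2 where none was called, and Nes, Cdkn1c and Mki67. Gfap, Mbp and Pcna are not analysed here. The members, the 26 lists and the rule were chosen with earlier results of these data known. Alternatives were the dye term, centring, scaling, array weights, robust variance, the arrays fitted, features singly, title number and each array left out. Promoter windows are from rat RefSeq (GRCr8) by symbol, which 4736 of 6241 named genes matched once.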

Additional observations from a re-analysis of the deposited data

Results flagged for a closer look

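Of 214 groups of 4 arrays examined, 16 held an array far from the other 3 by Dixon's criterion, where chance gives about 1 in 20. Of these 16, 6 were replicate 1 at 6 d, the array whose title number differs from the rest of its group. On it Entpd2 was at 2.64 (others 1.98 to 2.05), Incenp at -0.95 (-0.42 to -0.36), Nid2 at 0.38 (0.67 to 0.70), Nop56 at -0.39, Gata1 at 0.28 and Etv5 at -2.09 (-1.55 to -1.52). With that array left out, Entpd2 kept its call. Replicate 2 at 6 d stood apart for Itm2a at 1.63 (others 2.19 to 2.29) and Pecam1 at -0.16. Replicate 4 at 6 d did so for Sod1 at 0.26 and for Mvd, an enzyme of sterol synthesis, at -2.87 (others -1.16 to -0.95).

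At 12 h, replicate 3 stood apart for Entpd2 at -0.00153 (others 0.42 to 0.49), replicate 4 for Jun at -0.13 (others 0.27 to 0.34) and for Serinc2 at 1.27 (others 1.94 to 2.01), and replicate 1 for Emcn at 0.0272. The list median of glutathione transferases and antioxidant enzymes was 0.32 on replicate 1 at 12 h (others -0.01 to 0.02), and that of oxidative phosphorylation was -0.0843 on replicate 4 at 12 h (others 0.01 to 0.03).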

How the results depend on the processing

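All 235 differences kept their sign in each alternative run on the same units, and 0 were reversed. These units were chosen by their differences on the arrays that the alternatives largely reuse, so the kept signs are no independent support. The counts moved more. Without the dye term 72 units were higher and 15 lower at 6 d, and with array weights 323 and 146, against 178 and 57. Leaving out 1 array at a time gave 92 to 135 higher and 17 to 42 lower. The lowest higher count was without replicate 3 at either time and the lowest lower count without replicate 1 at 12 h (94 higher). The other settings gave 127 to 248 higher and 39 to 70 lower. The interaction called 0 units in each setting. Of the 55 named genes called, 18 were called in all 17 settings and 23 in all 8 single losses. Among the 23 kept in all 8 single losses, Pdgfa, Jun, Canx and Snapc2 lost their call without the dye term. Top2a lost its call there too, and again when the arrays were scaled. Many named genes that failed a single loss also lost their call without the dye term, such as Mcm6, Rrm2, Cdk1, Cd9 and Gadd45g. Of these, Mcm6, Rrm2, Cdk1 and Gadd45g were lost on scaling as well. Scaling left 0 mitosis genes called. A fit of only the 8 arrays without factor called 213 units, and 168 of the 235 kept their call. Among named genes, Cd9, Arsb, Gap43, Itgb1, Hnrnpa2b1, Pdia6, Rps9, Snrpb2, Coro1c and Fat4 lost their call in that fit. The cause of these shifts was not tested, and the single losses also had fewer arrays. Where a group kept 3 arrays, its spread was still pooled over all groups. No paired analysis was possible because the replicate numbers follow deposition order and the titles share no number that pairs arrays across groups. Alternatives of background correction could not be run on ratios alone.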

Other observations

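The genes in this paragraph were picked after their values were seen, so each carries its own call and they share none. Several called genes of membranes and the spectrin skeleton were higher at 6 d: the spectrin gene Sptan1 (mean 1.05 at 6 d and 0.42 at 12 h), the adducin gene Add3 (0.68 and 0.07) and the dystroglycan gene Dag1 (0.37 and -0.30). Enzymes and carriers of lipids were among the calls as well, with the glycolipid transfer gene Gltp at 1.46 at 6 d and 0.04 at 12 h (difference 1.41 ± 0.20, adjusted p = 0.00113), the triglyceride synthesis gene Dgat2 at 1.37 and 0.22, and the ceramide desaturase gene Degs1 at 0.24 and -0.46. Bace1, the protease that makes the first cut in the amyloid precursor, was at 1.35 and 0.35 (1.00 ± 0.13, adjusted p = 0.000595). Its substrate gene App had 0.79 ± 0.12, but the 3 features of App disagreed in sign. Of the endoplasmic reticulum, Sec61a1, of the protein channel, was at 0.20 and -0.43 and Ssr1, of the translocon, at 0.05 and -0.60. Lmna, the gene of nuclear lamins A and C, was at 0.44 and -0.49 (0.93 ± 0.12, adjusted p = 0.000598).

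Among genes lower at 6 d, the heparin-binding growth factor gene Mdk was at 0.20 at 6 d and 1.08 at 12 h (-0.88 ± 0.20, adjusted p = 0.0339), the chromatin remodeller Chd7 at -0.21 and 0.43, and the TGF-beta repressor gene Tgif2 at -0.48 and 0.34. The mitochondrial enzyme genes Idh2, Gpt2 and Acss1 fell by 0.81, 0.69 and 0.86.

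The largest difference of all was that of a probe with no listed gene, H3152H08_1. It had 6.65, 6.47, 6.38 and 5.20 at 6 d, against 0.52, 1.35, 1.17 and 0.30 at 12 h. The difference was 5.34 ± 0.42 without factor (adjusted p = 7e-06) and 4.78 ± 0.42 with PDGF-AA. Its gene is not named here.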
